A study of Mus musculus with 8 samples.

Results

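Glycolysis and hypoxia-response genes were followed across 8 mouse embryonic stem cell (ESC) lines that differ in the zinc finger transcription factor Zfp281. The list holds 37 genes chosen by name and known role: 15 glycolytic enzymes, 6 genes of sugar and lactate handling, 4 flux regulators at phosphofructokinase and pyruvate dehydrogenase, and 12 genes for the hypoxia-inducible factor (HIF), its hydroxylases and its targets. Of these, 34 were measured among 18193 genes in all. The enzymes Gpi1 and Eno1 were not analysed here. Gapdh was left out of the tests because its probe sets name several genes or serve as array controls, and it is described separately.

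The lines were 3 Zfp281 null lines (7, 3.34 and 3.38), 2 heterozygous lines (5 and 3.1) and 3 wild-type lines (3, 3.2 and 3.3). In the targeted allele the Zfp281 gene, with its coding exons, is replaced by a floxed neomycin resistance cassette. The paper also shows a null allele from which the cassette was removed, and the labels do not say which form each line carries. The allele was made in CJ7 ESCs, passed through the germ line of chimeras, and the lines were derived from blastocysts of heterozygous matings. All lines grew on primary mouse embryonic fibroblasts, the feeders, in serum with leukemia inhibitory factor, with no further treatment. RNA from each line was hybridized to 1 Affymetrix mouse genome array, so the spread within a genotype holds both line and technical differences. Values are log2 intensities, and each gene is read from its brightest probe set by the mean of the 8 arrays.

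Glycolysis turns glucose into pyruvate in the cytosol, and lactate dehydrogenase interconverts pyruvate and lactate. ESCs rely strongly on this pathway even where oxygen is plentiful. HIF is a transcription factor whose alpha subunit is marked for destruction by prolyl hydroxylases when oxygen is present. When oxygen falls, HIF binds short elements with the core letters ACGTG or GCGTG and activates genes for glucose transport, glycolysis, angiogenesis and autophagy, among them the gene of one of its own hydroxylases, Egln3.

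The HIF core gives a sequence by which the promoters of the members can be read. RefSeq promoter windows of 300 bases, 250 of them before the annotated start, were found for 32 of the 34 measured members, 44 windows in all. The core (ACGTG or GCGTG, on either strand) was present in 36 of these 44 windows (81.8%) and in 43.8% of all 32851 windows. ACGTG alone, on either strand, was in 28 member windows (63.6%) and in 19.6% of all windows. The core overlaps the E-box CACGTG, which counts on both strands and was present in 13.6% of member windows and 7.15% of all windows. Member windows were also richer in G and C, with a median of 64.0% against 52.7% in all windows. A match describes the letters only, and no binding was measured. The 250 bases before the start are shown for the 4 members past 2-fold between null and wild-type lines and for the HIF prolyl hydroxylases Egln1 and Egln3, with each core match in capitals.
Pfkp promoter, GRCm38.p6 chr13:6648772-6649021, minus strand: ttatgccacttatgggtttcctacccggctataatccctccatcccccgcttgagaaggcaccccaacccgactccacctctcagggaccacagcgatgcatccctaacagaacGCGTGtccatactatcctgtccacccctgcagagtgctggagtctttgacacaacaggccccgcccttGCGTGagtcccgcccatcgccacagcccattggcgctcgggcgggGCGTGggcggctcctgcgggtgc
Pgam1 promoter, GRCm38.p6 chr19:41911621-41911870, plus strand: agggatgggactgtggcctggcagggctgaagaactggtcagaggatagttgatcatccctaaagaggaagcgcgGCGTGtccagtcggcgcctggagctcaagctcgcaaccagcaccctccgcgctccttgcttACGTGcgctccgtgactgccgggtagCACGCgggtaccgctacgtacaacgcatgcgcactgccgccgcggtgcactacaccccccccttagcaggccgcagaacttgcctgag
Ankrd37 promoter, GRCm38.p6 chr8:45999851-46000100, minus strand: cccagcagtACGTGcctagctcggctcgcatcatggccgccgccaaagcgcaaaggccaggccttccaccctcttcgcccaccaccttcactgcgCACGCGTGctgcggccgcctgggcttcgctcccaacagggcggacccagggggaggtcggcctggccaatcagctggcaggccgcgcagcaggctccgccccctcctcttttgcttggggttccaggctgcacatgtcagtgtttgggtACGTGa
Ldhb promoter, GRCm38.p6 chr6:142507958-142508207, minus strand: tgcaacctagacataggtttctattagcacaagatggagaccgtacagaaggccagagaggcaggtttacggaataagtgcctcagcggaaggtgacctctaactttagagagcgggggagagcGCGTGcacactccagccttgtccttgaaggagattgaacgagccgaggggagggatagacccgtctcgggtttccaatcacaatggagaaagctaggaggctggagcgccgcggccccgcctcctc
Egln1 promoter, GRCm38.p6 chr8:124949255-124949504, minus strand: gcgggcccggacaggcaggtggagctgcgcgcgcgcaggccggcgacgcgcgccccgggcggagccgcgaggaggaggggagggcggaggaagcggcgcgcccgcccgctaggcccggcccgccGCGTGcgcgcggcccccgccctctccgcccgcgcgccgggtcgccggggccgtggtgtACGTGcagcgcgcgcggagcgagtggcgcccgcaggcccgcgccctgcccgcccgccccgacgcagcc
Egln3 promoter, GRCm38.p6 chr12:54203875-54204124, minus strand: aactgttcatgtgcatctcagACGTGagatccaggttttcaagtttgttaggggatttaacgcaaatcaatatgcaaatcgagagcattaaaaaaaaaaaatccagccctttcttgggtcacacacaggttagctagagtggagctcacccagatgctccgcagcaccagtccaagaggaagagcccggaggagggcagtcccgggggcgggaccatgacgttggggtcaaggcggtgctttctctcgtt

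With the base before the start counted as −1, the Pfkp matches begin at −136, −68 and −23 and those of Pgam1 at −175, −114 and −88. Ankrd37 held 4 matches in this stretch, and the pair at −155 and −152 overlap each other on opposite strands. Ldhb had 1 match at −126. Egln1 had matches at −126 and −68, and Egln3 had 1 at −229.

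The targeted gene was low in all null lines. Zfp281 had log2 values of 3.64, 5.06 and 5.23 in null lines 7, 3.34 and 3.38, 6.69 and 6.97 in heterozygous lines 5 and 3.1, with 6.88, 7.93 and 6.72 in wild-type lines 3, 3.2 and 3.3. A second Zfp281 probe set had 3.39, 2.96 and 2.94 in null lines, 6.74 in both heterozygous lines, with 7.19, 8.36 and 7.58 in wild-type lines. Of 12 ESC markers, 10 were called present in all 8 lines, Pou5f1, Sox2 and Nanog among them. Utf1 was called present in no line, and Lin28a was called present in 7. Of the 12, 9 averaged higher in null than in wild-type lines (median difference 0.54 on the log2 scale), and 7 reached an unadjusted p under 0.05, each of them higher. That level was reached by 16.4% of all genes and by 31.7% of genes called present in every line of at least 1 genotype. The other 3 averaged lower, Lin28a by the most (log2 fold change −2.62, limma adjusted p = 0.347). Lin28a had 5.46, 6.52 and 7.27 in null lines, with 5.63, 10.90 and 10.58 in wild-type lines. Dppa5a alone passed the test (log2 fold change 1.23, limma adjusted p = 0.0301), and Pou5f1 was at 1.29 (limma adjusted p = 0.0715). The summed linear level of the 12 was 18480 to 20560 in null, 12170 to 12840 in heterozygous and 9302 to 13540 in wild-type lines. Null lines averaged lower than wild-type lines for 15 and higher for 3 of the 18 feeder fibroblast markers measured, and none passed the test. The summed linear level of the feeder markers was 1489 to 1749 in null, 2229 to 3070 in heterozygous and 1755 to 3066 in wild-type lines. None is listed at 0, and 9 to 15 of them were called present per line. The log2 difference between 3′ and 5′ control probe sets, larger where RNA is more degraded, was 2.68 to 3.71 in null lines, 4.49 to 4.80 in the heterozygous lines, with 4.23 to 4.86 in wild-type lines. Probe sets called present made up 32.9% to 35.3% in null lines. They made up 28.4% in heterozygous line 3.1 and 30.4% in wild-type line 3.2, the lowest values of the 8 arrays. How far these differences enter the values of the members was not tested, apart from the fits named beside each result. In RNA from whole cultures, fewer cells of a type and less RNA per cell cannot be told apart.

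Between null and wild-type lines, the glycolytic enzymes Pfkp, Pgam1, Hk2, Tpi1 and Pkm were higher in all null lines on the probe sets used. The enzymes Hk1 and Pgk1 were lower in all null lines, and the other 5 measured enzymes overlapped. Ldhb and the HIF prolyl hydroxylases Egln1 and Egln3 were also lower in all null lines. None of the 34 members passed an adjusted p under 0.05 from limma in the fit over all 8 lines, where 1.13% of all genes did. At an unadjusted p under 0.05 there were 15 members, 7 higher and 8 lower (44.1% of them, against 16.4% of all genes). Among the 7306 genes called present in every line of at least 1 genotype, 31.7% reached that level, as did 15 of the 32 members among them. Once the 3′ minus 5′ difference was a covariate, 1 member reached an unadjusted p under 0.05, and no gene passed an adjusted p under 0.05, the targeted Zfp281 included. Of the variance of that covariate, 79% lay between genotypes, so this fit can hardly tell the covariate from genotype. Past 2-fold were 3 members higher, Pfkp, Ankrd37 and Pgam1 (1.37% of all genes were higher to this degree), and 1 lower, Ldhb (1.10% of all genes). All null lines lay above all wild-type lines for 8 members (11.1% of all genes) and below them for 11 (11.2% of all genes). Among the 7306 genes these shares were 17.8% above and 15.8% below, with 3.11% past 2-fold higher and 2.63% lower. Across the members the median log2 fold change was −0.13, against −0.01 over all genes. Omission of wild-type line 3.3 gave −0.06 and that of line 3 gave −0.09. The median was −0.06 on the deposited linear signal values, −0.07 with the 3′ minus 5′ covariate and 0.04 when each gene was read as its probe set mean. Without null line 3.34, 2 members passed the test, Egln1 and Egln3 (0.973% of all genes did), and without wild-type line 3.3 Pkm did (1.14% of all genes). Lines 7 and 3 came from the same litter of embryos, as did lines 3.38 and 3.3. Within these 2 pairs, with the litter as a block, Pfkp alone of the members passed (0.978% of all genes did), and Pfkp and Ldhb were past 2-fold (2.60% of all genes). With so few arrays, the p-values of this fit lean heavily on the variance that limma shares across genes. The null line was the higher in both pairs for 9 members (28.1% of all genes) and the lower in both for 18 (31.8% of all genes).

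**Figure D1:**
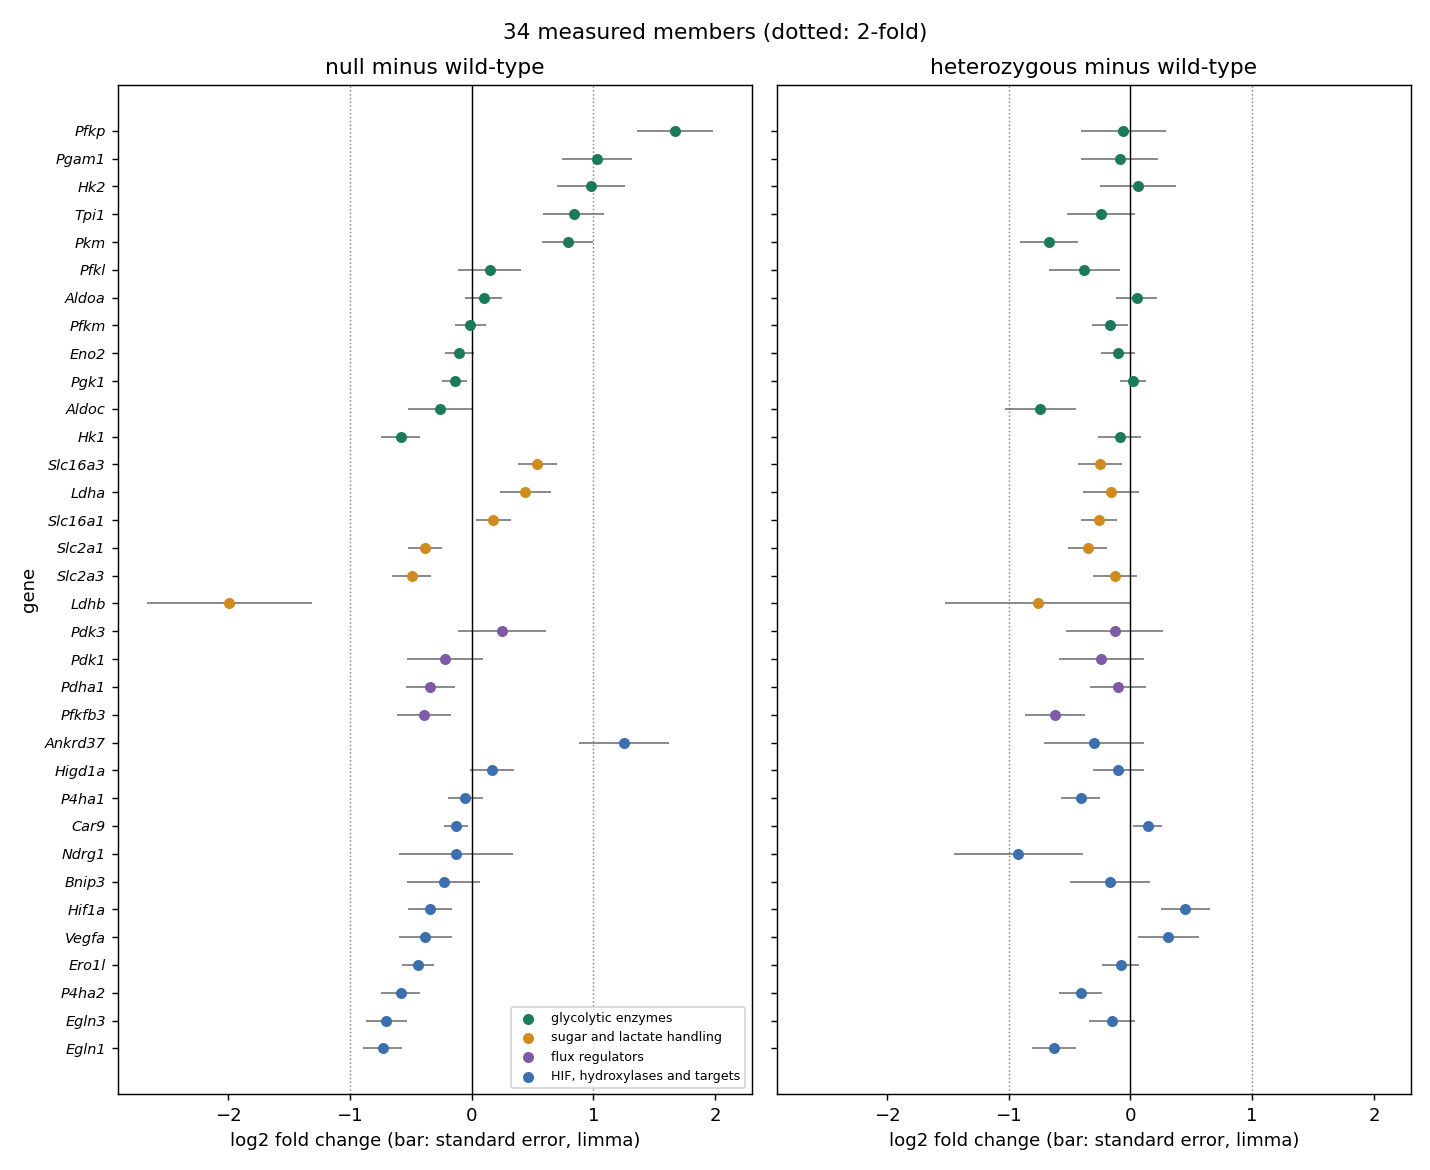
Log2 fold change of each of the 34 measured members, null minus wild-type on the left and heterozygous minus wild-type on the right, with the standard error from limma as a bar and dotted lines at 2-fold. Pfkp lies farthest to the right at 1.67 and Ldhb farthest to the left at −1.99 in the null panel, and no heterozygous value passes 2-fold.

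Among the glycolytic enzymes 12 were measured, 7 with a higher and 5 with a lower mean in null lines, and their median log2 fold change was 0.13, or 0.004 with the 3′ minus 5′ covariate and 0.24 with probe sets averaged. Pfkp is the platelet-type isoform of phosphofructokinase, the enzyme of the committed step. Its log2 values were 10.57, 10.30 and 11.11 in null lines 7, 3.34 and 3.38, 9.18 and 8.68 in heterozygous lines 5 and 3.1, with 9.23, 8.33 and 9.42 in wild-type lines 3, 3.2 and 3.3. All null lines were above all other lines, and the heterozygous lines lay within the wild-type range. Pfkp averaged 10.66 ± 0.41 in null lines (SD, n = 3) and 8.99 ± 0.58 in wild-type lines (SD, n = 3), a 3.17-fold difference (log2 fold change 1.67, standard error 0.31, limma adjusted p = 0.0521). Its adjusted p was 0.0311 when only genes called present in every line of a genotype were tested, 0.0414 with an intensity trend and robust variances, and 0.0413 within the litter pairs, where null line 7 was 1.35 above wild-type line 3 and null line 3.38 was 1.68 above wild-type line 3.3. It did not pass in the other alternatives. Its second probe set called present in all lines gave 1.37, and the mean of its 3 probe sets gave 1.09. The other phosphofructokinase isoforms had smaller differences, with log2 fold changes of 0.15 for the liver type Pfkl and −0.01 for the muscle type Pfkm.

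Pgam1, Pkm and Tpi1 were also higher in all null lines than in all wild-type lines. Pgam1, the phosphoglycerate mutase, had log2 values of 11.32, 11.32 and 11.48 in null lines, 10.44 and 10.07 in the heterozygous lines, with 10.44, 9.65 and 10.94 in wild-type lines. The null values were nearly equal to each other and all above the other 5 lines, among which wild-type line 3.2 was lowest. The log2 fold change was 1.03 (standard error 0.29, limma adjusted p = 0.117). Pkm, the pyruvate kinase of ESCs and other dividing cells, had log2 values of 11.61, 11.45 and 11.26 in null lines, 10.00 and 9.95 in the heterozygous lines, with 10.43, 10.35 and 11.16 in wild-type lines. Wild-type line 3.3 came closest to the null lines. The log2 fold change was 0.79 (standard error 0.21, limma adjusted p = 0.107), and without wild-type line 3.3 it was 1.05 (limma adjusted p = 0.0308). Tpi1, the triosephosphate isomerase, had log2 values of 10.33, 9.95 and 9.74 in null lines, 9.04 and 8.81 in the heterozygous lines, with 9.23, 8.64 and 9.62 in wild-type lines, and the log2 fold change was 0.84 (standard error 0.25, limma adjusted p = 0.138). The null lines stood above the rest on this probe set as well, by a narrow margin over wild-type line 3.3. A further Tpi1 probe set called present in all lines gave 1.38, again without overlap. Another gave 0.60 with overlap, null line 3.38 at 9.09 being below wild-type line 3.3 at 9.28.

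The hexokinases, which trap glucose in the cell, differed in direction. Hk2 had log2 values of 9.40, 8.97 and 8.90 in null lines, 8.51 and 7.84 in the heterozygous lines, with 8.55, 7.55 and 8.25 in wild-type lines, a log2 fold change of 0.98 (limma adjusted p = 0.127). Hk1 had 7.37, 7.64 and 7.35 in null lines, 8.00 and 7.91 in the heterozygous lines, with 8.17, 7.70 and 8.25 in wild-type lines, a log2 fold change of −0.58 (limma adjusted p = 0.117). For both, the null lines did not overlap the wild-type lines. The remaining enzymes had smaller differences. The aldolases Aldoa and Aldoc had log2 fold changes of 0.10 and −0.26, with the 5 Aldoa probe sets spread over −0.20 to 1.02, and Pgk1, the phosphoglycerate kinase, had −0.14, with all null lines below all wild-type lines. Eno2, the neuronal enolase, was called present in 1 of 8 lines with values of 3.64 to 3.95, so no fold change is given.

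Within the wild-type genotype the same enzymes varied between lines. Wild-type line 3.2 had the lowest of the 3 wild-type values for 9 of the 12 glycolytic enzymes, against 33.8% of all genes. Wild-type line 3.3 had the highest for 7 of them, against 29.9% of all genes. Of the heterozygous lines, line 3.1 was the lower for 10 of the 12, against 46.6% of all genes. Lines 3.2 and 3.1 are the arrays with the lowest shares of present calls. Past 2-fold in either direction were 4 members and 2.47% of all genes. Without wild-type line 3.2 the members numbered 2, Pfkp at 1.33 and Ldhb at −1.58 (1.81% of all genes), and Ankrd37 and Pgam1 had log2 fold changes of 0.95 and 0.68. Without wild-type line 3.3 they numbered 7, with Hk2 at 1.05, Tpi1 at 1.07 and Pkm at 1.05 added (3.39% of all genes). With the 3′ minus 5′ difference added to the fit, the log2 fold changes were 1.25 for Pfkp, 0.54 for Pgam1, 0.13 for Pkm, 0.03 for Tpi1 and 0.37 for Hk2. That difference was itself built from Gapdh and beta-actin control probe sets, and 79.0% of its variance lay between genotypes.

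**Figure D2:**
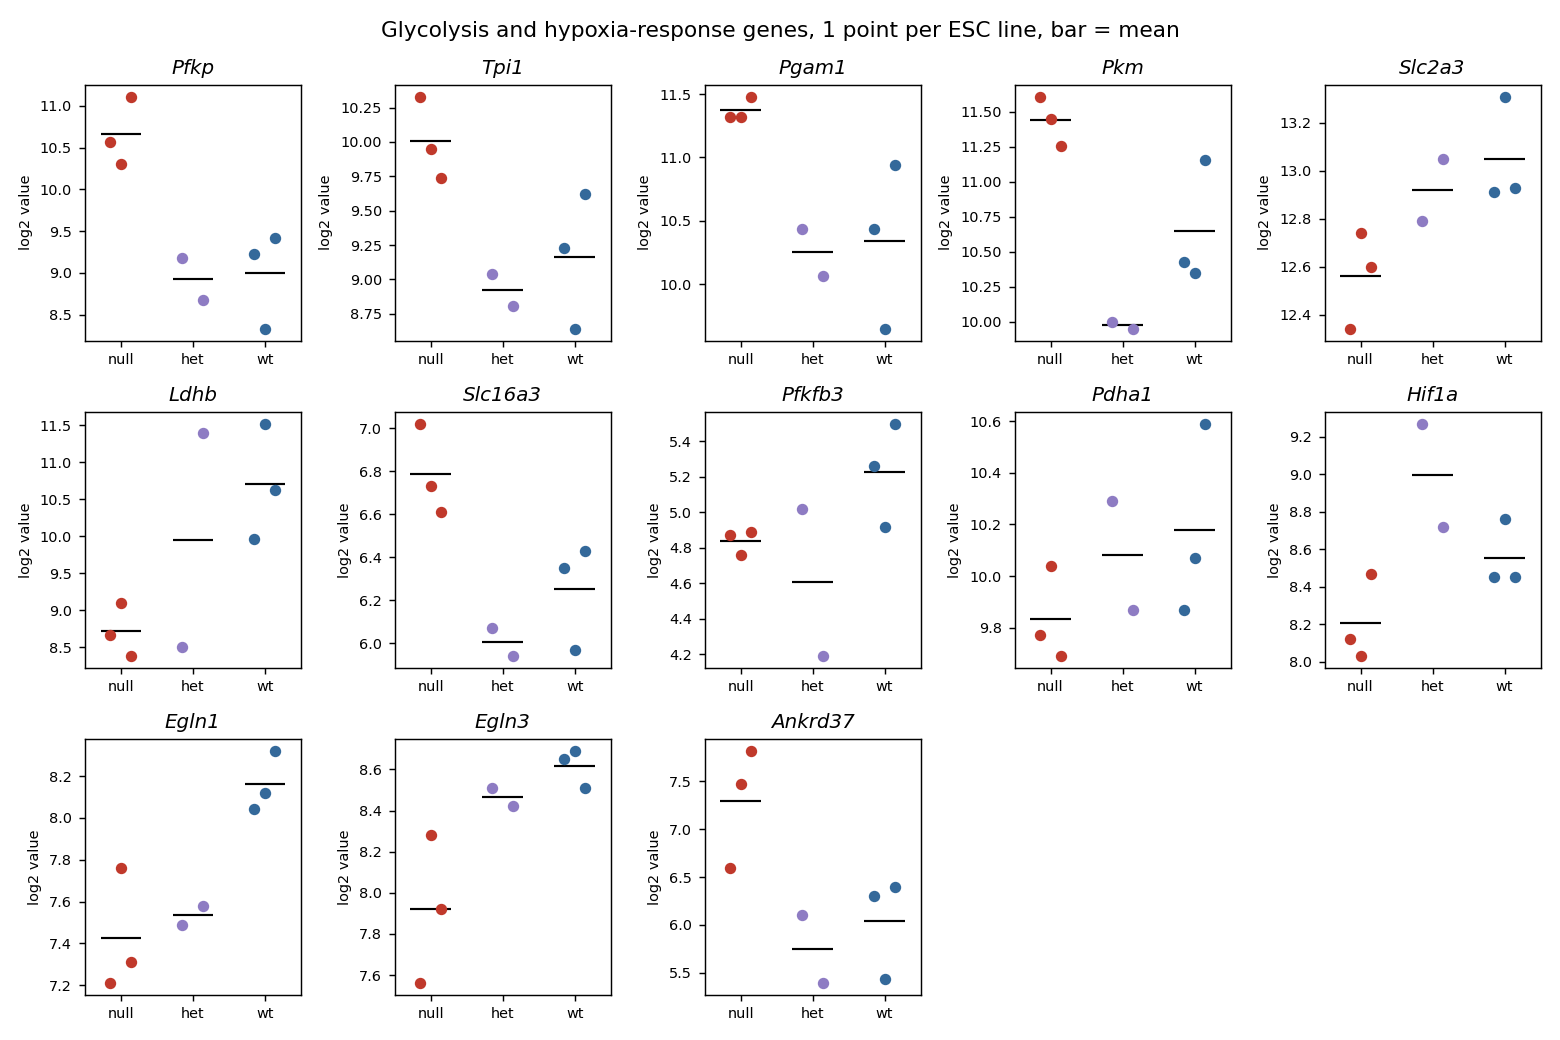
Log2 value of 13 members in each ESC line, with null lines on the left, heterozygous (het) in the middle and wild-type (wt) on the right of each panel, 1 point per line and a bar at the mean. The null points of Pfkp, Pgam1, Tpi1 and Pkm lie above all other points, and Ldhb splits the heterozygous lines at 8.50 and 11.40.

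Gapdh, the dehydrogenase between the aldolase and kinase steps, was higher in null lines on each of the 6 probe sets that name it. On the brightest, which also names related sequences, the log2 values were 13.27, 13.15 and 13.22 in null lines, 11.91 and 12.36 in the heterozygous lines, with 12.40, 12.12 and 12.89 in wild-type lines. The mean difference between null and wild-type lines was 0.74 (exact permutation test over 3 against 3 lines, two-sided p = 0.1, the smallest they can give). On the 3′ control probe set, which names Gapdh alone, the values were 12.88, 12.73 and 12.76 in null lines, 11.58 and 12.12 in the heterozygous lines, with 12.06, 11.84 and 12.53 in wild-type lines. On its 5′ control probe set the null lines had 10.79, 9.66 and 9.77, against 7.74 and 7.92 in the heterozygous lines, with 7.92, 8.02 and 8.90 in wild-type lines. The mean difference was 1.79 at the 5′ end and 0.65 at the 3′ end. These control probe sets also enter the 3′ minus 5′ difference, so for Gapdh its smaller size in null lines restates these values.

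In sugar and lactate handling 6 members were measured, 3 higher and 3 lower in null lines, and their median log2 fold change was −0.10, or 0.08 with probe sets averaged. Ldhb, the heart-type lactate dehydrogenase subunit that favors pyruvate formation, had the largest difference among the members as reported, though with the 3′ minus 5′ covariate those of Ankrd37 and Pfkp were larger in size. Its log2 values were 8.67, 9.10 and 8.38 in null lines 7, 3.34 and 3.38, 8.50 and 11.40 in heterozygous lines 5 and 3.1, with 9.96, 11.52 and 10.62 in wild-type lines 3, 3.2 and 3.3. All null lines were below all wild-type lines, but heterozygous line 5 lay among the null lines and line 3.1 among the wild-type lines. Ldhb averaged 8.72 ± 0.36 in null lines (SD, n = 3) and 10.70 ± 0.78 in wild-type lines (SD, n = 3), so it was 3.96-fold lower in null lines. The log2 fold change was −1.99 with a standard error of 0.68 (limma adjusted p = 0.184, and 0.0516 at the lowest of its alternatives, within the litter pairs). Its remaining 3 probe sets gave −2.06, −2.47 and −3.08. With the 3′ minus 5′ covariate the log2 fold change was −1.19.

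Ldha, the muscle-type subunit and a HIF target, ran the other way. It had log2 values of 12.38, 12.27 and 12.59 in null lines, 12.15 and 11.47 in the heterozygous lines, with 12.11, 11.65 and 12.15 in wild-type lines. All null lines were above the rest, with a log2 fold change of 0.44 (limma adjusted p = 0.339). Slc16a3, the lactate exporter MCT4, had 7.02, 6.73 and 6.61 in null lines, 6.07 and 5.94 in the heterozygous lines, with 6.35, 5.97 and 6.43 in wild-type lines. The null lines again lay above the others, and the log2 fold change was 0.54 (standard error 0.16, limma adjusted p = 0.135). With the 3′ minus 5′ covariate Slc16a3 was at 0.07. Slc16a1, the transporter MCT1, had a log2 fold change of 0.18.

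The glucose transporters were read on several probe sets. Slc2a3, the high-affinity transporter GLUT3, had log2 values of 12.34, 12.74 and 12.60 in null lines, 12.79 and 13.05 in the heterozygous lines, with 12.91, 13.31 and 12.93 in wild-type lines, and the log2 fold change was −0.49 (standard error 0.16, limma adjusted p = 0.163). The null values were below all others, and a further probe set called present in all lines gave −0.53. With the 3′ minus 5′ covariate Slc2a3 was at −0.04. For Slc2a1, the transporter GLUT1, probe sets disagreed. The brightest gave −0.38, another −0.09 and another 0.63. On the last of these the null lines had 9.32, 8.98 and 9.34, against 8.15 and 8.04 in the heterozygous lines, with 8.40, 8.52 and 8.82 in wild-type lines. No direction is therefore given for Slc2a1.

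The 4 flux regulators had a median log2 fold change of −0.28, or 0.14 with probe sets averaged, −0.61 with the 3′ minus 5′ covariate, −0.50 within the litter pairs, −0.16 without null line 3.38 and −0.11 without wild-type line 3.3, and none reached an unadjusted p under 0.05. Pfkfb3, which makes the activator of phosphofructokinase, had log2 values of 4.87, 4.76 and 4.89 in null lines, 5.02 and 4.19 in the heterozygous lines, with 5.26, 4.92 and 5.50 in wild-type lines. The null lines were below the wild-type lines, while heterozygous line 3.1 was lowest of all. The log2 fold change was −0.39 (standard error 0.22, limma adjusted p = 0.462), and −0.85 with the 3′ minus 5′ covariate. Pdha1, the catalytic alpha subunit of pyruvate dehydrogenase, had 9.77, 10.04 and 9.69 in null lines, 10.29 and 9.87 in the heterozygous lines, with 9.87, 10.07 and 10.59 in wild-type lines. These groups overlapped, and the 2 probe sets of Pdha1 pointed opposite ways, at −0.34 and 0.46. The pyruvate dehydrogenase kinases Pdk1 and Pdk3, which switch that complex off, had log2 fold changes of −0.22 and 0.25. For Pdk1 the further probe sets called present in all lines gave 0.52 and 0.39.

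**Figure D3:**
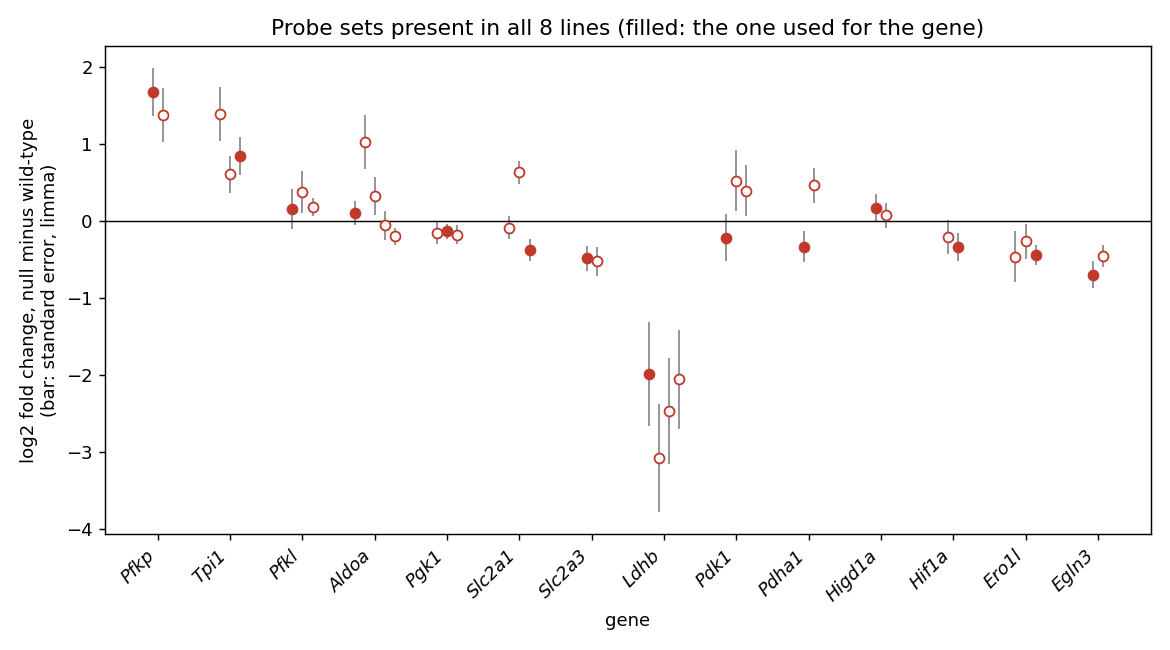
Log2 fold change, null minus wild-type, of every probe set called present in all 8 lines, for the 14 members with at least 2 of them, with the standard error from limma as a bar and the probe set used for the gene filled. All Ldhb, Pfkp and Tpi1 probe sets keep to 1 side of 0, whereas those of Aldoa, Slc2a1, Pdk1 and Pdha1 fall on both sides.

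Of the 12 HIF pathway and hypoxia target members, 2 had a higher and 10 a lower mean in null lines, and their median log2 fold change was −0.29, or −0.07 with the 3′ minus 5′ covariate and −0.18 with probe sets averaged. Hif1a, the oxygen-regulated subunit, had log2 values of 8.12, 8.03 and 8.47 in null lines, 9.27 and 8.72 in the heterozygous lines, with 8.45, 8.76 and 8.45 in wild-type lines. Null and wild-type lines overlapped, and the heterozygous lines were higher than the null lines. Null minus wild-type, the log2 fold change was −0.34 (standard error 0.18, limma adjusted p = 0.419). HIF activity is set largely at the protein, which was not measured.

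Of the 3 HIF prolyl hydroxylases, Egln1 and Egln3 were lower in all null lines than in all wild-type lines. Egln2, which encodes PHD1 and is not among the members, overlapped, with 6.73, 6.44 and 6.38 in null lines, 6.24 and 6.34 in the heterozygous lines, with 6.36, 6.21 and 6.43 in wild-type lines (log2 fold change 0.18, limma adjusted p = 0.569). Egln1 encodes PHD2, the main HIF prolyl hydroxylase in most cells. Its log2 values were 7.21, 7.76 and 7.31 in null lines, 7.49 and 7.58 in the heterozygous lines, with 8.04, 8.12 and 8.32 in wild-type lines. Null and heterozygous lines shared 1 range, below all wild-type lines. Egln1 averaged 7.43 ± 0.30 in null lines (SD, n = 3) and 8.16 ± 0.15 in wild-type lines (SD, n = 3). Its log2 fold change was −0.73 (standard error 0.16, limma adjusted p = 0.0680). Its adjusted p was 0.0495 among genes called present and 0.0381 without null line 3.34. A second Egln1 probe set, called present in 3 lines, gave 0.38, and the mean of both gave −0.18. The signal values gave −1.20.

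Egln3 encodes PHD3, a hydroxylase that is itself a HIF target. Its log2 values were 7.56, 8.28 and 7.92 in null lines, 8.51 and 8.42 in the heterozygous lines, with 8.65, 8.69 and 8.51 in wild-type lines. All null lines were below all other lines, null line 7 the farthest. The log2 fold change was −0.70 (standard error 0.17, limma adjusted p = 0.0901), and −0.88 without null line 3.34 (limma adjusted p = 0.0472). Its second probe set gave −0.46, and there the heterozygous lines, at 7.78 and 7.64, lay within the null range of 7.63 to 8.01. With the 3′ minus 5′ covariate, Egln1 was at −0.48 and Egln3 at −0.07.

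Among the HIF targets Ankrd37, an ankyrin repeat protein, stood apart from the rest. Its log2 values were 6.60, 7.47 and 7.82 in null lines, 6.10 and 5.39 in the heterozygous lines, with 6.30, 5.43 and 6.40 in wild-type lines. All null lines were above the others, null line 7 by a small margin. The 2.39-fold difference (log2 fold change 1.25, standard error 0.37) had an adjusted p of 0.133 from limma, and the log2 fold change was 1.77 with the 3′ minus 5′ covariate. Ankrd37 was called present in 7 of 8 lines. The other targets had smaller differences. Ero1l (listed as Ero1a), the oxidase of the endoplasmic reticulum, had a log2 fold change of −0.44 with no overlap between null and wild-type lines. Its remaining probe sets gave −0.47 and −0.27 with overlapping lines, and over the alternatives Ero1l ranged from −0.68 to −0.03. The collagen prolyl hydroxylase P4ha2 had −0.58, also with no overlap between null and wild-type lines. Its relative P4ha1 was at −0.05. The mitophagy receptor Bnip3 was at −0.23, the mitochondrial protein Higd1a at 0.17 and the angiogenic factor Vegfa at −0.38, all with overlapping lines. Ndrg1, a stress-response gene, ranged over 7.43 to 8.05 in null lines and over 6.70 to 8.78 in wild-type lines. Car9, the carbonic anhydrase often read as a hypoxia marker, was called present in 1 of 8 lines at values of 4.85 to 5.22, so no fold change is given.

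**Figure D4:**
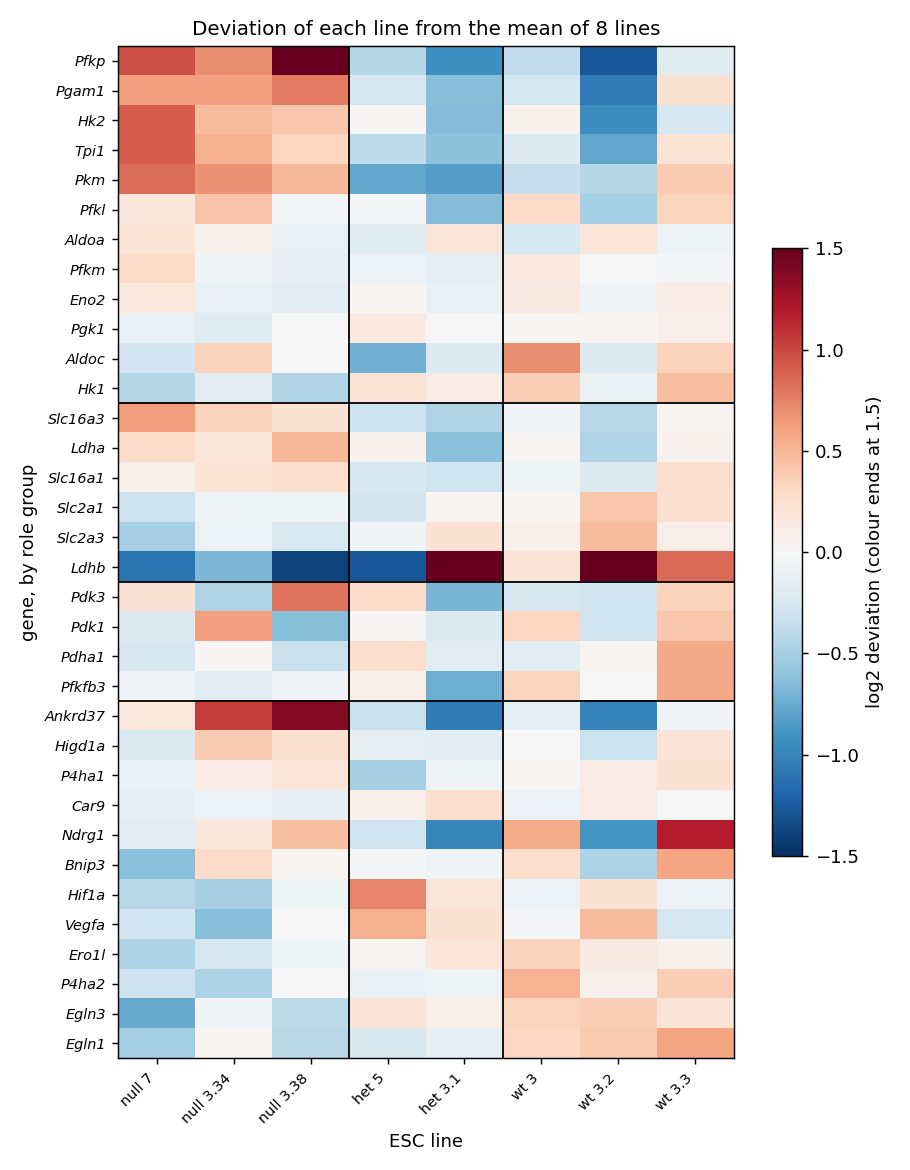
Deviation of the log2 value of each line from the mean of the 8 lines, for the 34 measured members in rows grouped by role, with null lines in the left columns, heterozygous (het) in the middle and wild-type (wt) on the right. The top 5 rows, Pfkp, Pgam1, Hk2, Tpi1 and Pkm, are above the mean in all null lines, and wild-type line 3.2 and heterozygous line 3.1 are below it in the same rows.

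Between heterozygous and wild-type lines no member differed by more than 2-fold. None of the 34 passed an adjusted p under 0.05 from limma (0.00% of all genes did), and 6 reached an unadjusted p under 0.05, all lower (3.85% of all genes). Among genes called present in every line of at least 1 genotype, 5.50% reached that unadjusted level, as did 6 of the 32 members there. Of all genes, 0.126% were past 2-fold higher and 0.209% lower. The lower members were Pkm at −0.67 and Aldoc at −0.74 among the enzymes, Pfkfb3 at −0.62, and Egln1 at −0.63, P4ha1 at −0.41 and P4ha2 at −0.41 in the HIF group. The smallest of these p-values was that of Egln1, at 0.00704 unadjusted and 0.997 adjusted from limma. Across the members the median log2 fold change was −0.16, against 0.01 over all genes, and 28 of the 34 had a lower mean in heterozygous lines. Without wild-type line 3.2 the median was −0.33, and without heterozygous line 5 it was −0.27.

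Null against heterozygous lines, a comparison that shares the null lines with the first, gave 6 members past 2-fold. Higher in null lines were Pfkp at 1.73, Ankrd37 at 1.55, Pkm at 1.47, Pgam1 at 1.12 and Tpi1 at 1.08 (1.76% of all genes were higher to this degree). Lower was Ldhb at −1.23, whose heterozygous lines were at 8.50 and 11.40 (0.660% of all genes were lower to this degree). None passed an adjusted p under 0.05 from limma (0.00% of all genes), with Pkm nearest at 0.0598. An unadjusted p under 0.05 was reached by 15 members, 9 higher and 6 lower (13.8% of all genes). With the 3′ minus 5′ covariate 1 member reached it. Of the 7306 genes called present in every line of at least 1 genotype, 27.0% reached it as reported, as did 14 of the 32 members there. Of those genes, 4.2% were past 2-fold higher and 1.6% lower. Without wild-type line 3.2, which is in neither group of this comparison but enters the shared variance, 5 members passed, namely Pfkp, Tpi1, Pgam1, Pkm and Slc16a3 (1.90% of all genes passed). Without wild-type line 3.3, Pkm was the one member that passed (limma adjusted p = 0.0303), with 0.665% of all genes. Hif1a was at −0.79 here (standard error 0.20, limma adjusted p = 0.126), with all null lines below both heterozygous lines.

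Other genes of the same pathways were read from wider lists. Of 8 measured genes of the pentose phosphate pathway, the branch from glycolysis that makes NADPH and ribose, 6 had a higher and 2 a lower mean in null lines when set against wild-type lines, and none passed the test. Their log2 fold changes had a median of 0.28. Taldo1, the transaldolase, had log2 values of 8.42, 7.79 and 7.96 in null lines, 7.20 and 6.31 in the heterozygous lines, with 6.83, 6.07 and 7.18 in wild-type lines. The null lines were above all others, and the log2 fold change was 1.36 (standard error 0.33, limma adjusted p = 0.0854). Tkt, the transketolase, was at 0.46 (limma adjusted p = 0.133). Pgls, the lactonase of the oxidative branch, was called present in no line.

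Of 22 other glycolytic enzymes and regulators, 14 were higher and 8 lower, none passed, and 4 were called present in all lines. Those with the smallest p were Adpgk, the ADP-dependent glucokinase, at 0.56, Pgm2, a phosphoglucomutase, at 0.36 and Gpd2, the mitochondrial glycerol phosphate dehydrogenase, at 0.54. Of 10 genes of pyruvate entry and pyruvate dehydrogenase, 7 were higher and 3 lower and none passed. The pyruvate dehydrogenase beta subunit Pdhb was at 0.41, pyruvate carboxylase Pcx at 0.49 and the mitochondrial pyruvate carrier subunit Mpc1 at 0.94.

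Among 27 other HIF pathway genes and hypoxia targets, 14 were higher and 13 lower, and the median of their log2 fold changes was 0.01. The one that passed was Cited2, a HIF target whose protein competes with HIF for the coactivators CBP and p300, which fell in null lines. Its log2 values were 6.18, 6.90 and 6.48 in null lines, 7.40 and 6.83 in the heterozygous lines, with 7.86, 8.08 and 7.70 in wild-type lines. All null lines were below all wild-type lines and heterozygous line 3.1 lay within the null range. The log2 fold change was −1.36 (standard error 0.22, limma adjusted p = 0.0385). It did not pass without null line 7 (0.149), null line 3.38 (0.0631), wild-type line 3 (0.131) or wild-type line 3.2 (0.107, or 0.0953 with heterozygous line 3.1 left out too), or with the signal values (0.277), and with the 3′ minus 5′ covariate the log2 fold change was −0.82. The adenylate kinase Ak4 was at −0.79 (limma adjusted p = 0.0827) and the lipase inhibitor Angptl4, called present in 3 lines, at 0.76 (limma adjusted p = 0.0882).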

How the data were processed

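Total RNA of 8 ESC lines was hybridized to Affymetrix arrays, 1 per line. The authors normalized the arrays by RMA and deposited log2 values for 45101 probe sets, and RMA and limma, named in the submitters' processing notes, carry no version there. They also deposited a linear signal value for each probe set and array, with a detection p-value and the present or absent call made from it, and how the signal was scaled is not stated in the labels. Of the probe sets, 64 controls were left out, 34945 name 1 gene, 932 several and 9160 none in the platform table. Each of 18193 genes took the probe set with the highest mean. A gene was called present in a line by the deposited call.

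The 3 genotypes were fitted together in limma 3.58.1 (R 4.3.3) on the log2 values, with Benjamini-Hochberg adjustment over all genes and a threshold of 0.05. The fold threshold was 2. The fit was tested on simulated data. Alternatives were the mean of a gene's probe sets, log2 of signal plus 1 with quantile normalization, quantile normalization of the log2 values, detected genes only, 2 genotypes only, an intensity trend with robust variances, a covariate for the 3′ minus 5′ difference, and leaving out each line. Omission of lines 3.2 and 3.1 together, and a fit of lines 7, 3, 3.38 and 3.3 alone with the litter as a block, were chosen after seeing the data. The study's text gives these as null and wild-type lines of the same litters, and the deviations of paired lines from their genotype means correlated at 0.10 and 0.04 over genes. Members, lists and tests were chosen with earlier results of these data known. Values per line are given for members past a threshold, the 2 of each role group with the smallest p and Hif1a, and for other members where they add to a group. Hk2, Hk1, Ldha and the lowest-line counts were added after the values were seen. For each other list, up to 3 genes with the smallest p are named. Promoter windows are RefSeq sequences of GRCm38.p6. The number of arrays limits the precision, and the labels name no batch. The limma p-values set each difference against the spread within genotypes, moderated over all genes. That spread holds both line and technical differences.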

Additional observations from a re-analysis of the deposited data

Results flagged for a closer look

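Gapdh lies outside the tests, and each of its 6 probe sets was higher in all null lines than in all wild-type lines. The mean log2 differences, null minus wild-type, were 0.74, 0.49 and 0.14 on the probe sets that name several genes. They were 0.65, 1.86 and 1.79 on the 3′, middle and 5′ control probe sets. The exact permutation p was 0.1 for each, the smallest that 3 against 3 lines can give. The 3′ minus 5′ difference was 2.68 to 3.71 in null lines and 4.23 to 4.86 in wild-type lines. It is computed in part from the Gapdh 3′ and 5′ control probe sets, so the larger Gapdh difference at the 5′ end is no separate result. How far RNA quality enters the value of each probe set was not tested.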

How the results depend on the processing

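Of the 34 members, 20 kept the sign of their null versus wild-type difference under all 17 alternatives, and 12 of the 13 members with values in the text by rule did so. Pdha1 was the exception, at 0.06 with its probe sets averaged. With probe sets averaged the median log2 fold change of the members was 0.037 between null and wild-type lines and 0.242 between null and heterozygous lines, against −0.129 and 0.106 as reported. With the signal values the null versus wild-type median was −0.060, and among detected genes the null versus heterozygous median was 0.196. Members passing between null and wild-type lines numbered 2 among detected genes and 1 with an intensity trend, and between null and heterozygous lines 2 among detected genes and 1 with only those lines fitted. Of all genes in these fits, 442 of 7306 and 223 of 18193 passed in the first comparison, and 166 of 7306 and 96 of 18193 in the second. No member and no other gene passed in either with the 3′ minus 5′ covariate. Without wild-type line 3.2 and heterozygous line 3.1, 2 members were past 2-fold.

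When each line was left out in turn, members passing between null and wild-type lines ranged over 0 to 2, those between null and heterozygous lines over 0 to 5, and those past 2-fold over 2 to 7. Of all 18193 genes, the same counts ranged over 2 to 208, 0 to 346 and 330 to 617. The median ranged over −0.156 to −0.057 between null and wild-type lines and over −0.334 to −0.116 between heterozygous and wild-type lines. The count of members whose null and wild-type lines do not overlap was 14 to 22 over all alternatives run for it. The share of all genes moved too, over 19.4% to 35.4%. The count of 22 came without null line 7, where the share of all genes was 29.0%. A fit with 1 heterozygous line left assumes that it varies like the others. The causes of these shifts were not tested. With the litter as a block in the 2 same-litter pairs, 1 member passed and 2 were past 2-fold between null and wild-type lines. Pfkp was the member that passed, and no other member gained or lost a pass. Ankrd37 at 0.86 and Pgam1 at 0.71 were no longer past 2-fold in this fit. The labels give no replicate numbers that pair the lines. The number of arrays limits the precision, and RNA quality and present calls differ along with genotype.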
